A study of Mus musculus with 6 samples.

Results

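The immediate early genes examined in mouse liver were Fos, Fosb, Jun, Junb, Egr1, Nr4a1, Myc, Ier2, Ier3 and Dusp1. They were taken by gene symbol as a set of rapid transcription response genes. This rule uses no measured value, but the set was chosen with earlier results of these data known. The members are 10 of the 54532 Ensembl genes counted, and each symbol matched 1 gene. Of these, 9 passed the filter on low counts together with 12795 genes in all, and Fosb did not. Liver RNA came from male wild-type (WT) C57BL/6J mice of 2 groups with 3 libraries each, namely HFD (libraries 1 to 3) and HFD+Allantoin-H (libraries 4 to 6). The labels give no animal number, and each library is taken here as 1 mouse. According to the methods, mice entered at 8 weeks of age, and both groups received a high-fat diet for 4 weeks and then for 4 weeks more. During the second period the HFD+Allantoin-H mice also had allantoin, an oxidation product of uric acid, in the drinking water. The labels name 0.06 and 0.3 mg/mL without assigning either to a library, and the methods give the higher one for this group. Both groups carry the diet and no chow-fed library was analysed here, so the comparison concerns allantoin on top of the diet. Neither the order of collection nor a batch is stated for the libraries.

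Immediate early genes are transcribed within minutes of a signal, without new protein synthesis, because the factors that switch them on, such as SRF, the ternary complex factors and CREB, are already present and are activated by kinases. Their transcripts and proteins are short-lived, so the level at one moment follows recent events in the tissue. In liver they are known from regeneration after partial hepatectomy, from growth factor and hormone signals, from injury and from the handling of tissue. Fos, Fosb, Jun and Junb encode subunits of the AP-1 transcription factor, Egr1 encodes a zinc finger factor, Nr4a1 an orphan nuclear receptor and Myc a bHLH factor of growth control. Ier2 and Ier3 encode small early response proteins, and Dusp1 encodes a phosphatase that inactivates MAP kinases.

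Promoter sequences are shown because signal-responsive elements just before the start site are a well known property of such genes. Windows of 250 bases before the start site were taken for 7 members from RefSeq (GRCm38.p6), and Egr1, Myc and Ier2 were not analysed here. Motifs sought on both strands were the CArG box that SRF binds and the cAMP response element (CRE) TGACGTCA with its half-site TGACG or CGTCA. The AP-1 site TGANTCA and the EGR site GCGTGGGCG were also sought on both strands, and the TATA box TATAAA on the sense strand only. The half-site was added with these promoters in view, and every CRE contains it on both strands. It was present in 5 of the 7 windows (Fos, Fosb, Junb, Nr4a1 and Dusp1) and in 17.8% of 32851 promoter windows. The whole CRE was found in Dusp1 only, against 1.55% of all windows, and the TATA box in Fos only, against 7.59%. The CArG box (1.47% of all windows), the AP-1 site (6.75%) and the EGR site (0.536%) had no match in the 7 windows, which says only that these letters are not in these stretches.

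Stretches of 150 bases outside annotated exons are given below for the 5 members with a half-site and for Jun, which has none of the motifs. They are written 5′ to 3′ on the sense strand, with matches to the motifs in capitals. On GRCm38.p6 they lie at chr12:85473740-85473889 (plus strand), chr7:19310052-19310201 (minus strand), chr4:95052223-95052372 (minus strand), chr8:84978749-84978898 (minus strand), chr15:101266696-101266845 (plus strand) and chr17:26508520-26508669 (minus strand).
Fos: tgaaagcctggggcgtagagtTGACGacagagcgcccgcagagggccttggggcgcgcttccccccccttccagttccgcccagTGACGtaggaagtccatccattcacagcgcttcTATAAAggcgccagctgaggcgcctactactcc
Fosb: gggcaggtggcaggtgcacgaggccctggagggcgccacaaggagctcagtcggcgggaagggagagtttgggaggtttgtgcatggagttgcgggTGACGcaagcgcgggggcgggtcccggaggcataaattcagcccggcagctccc
Jun: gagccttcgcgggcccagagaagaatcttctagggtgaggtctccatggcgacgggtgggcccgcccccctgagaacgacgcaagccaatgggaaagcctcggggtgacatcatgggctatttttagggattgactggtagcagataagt
Junb: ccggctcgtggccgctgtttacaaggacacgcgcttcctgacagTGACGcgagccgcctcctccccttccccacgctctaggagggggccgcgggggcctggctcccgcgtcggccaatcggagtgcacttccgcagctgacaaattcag
Nr4a1: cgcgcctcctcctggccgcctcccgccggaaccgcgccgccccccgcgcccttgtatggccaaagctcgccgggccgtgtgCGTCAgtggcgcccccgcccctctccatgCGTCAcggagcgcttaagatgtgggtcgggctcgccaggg
Dusp1: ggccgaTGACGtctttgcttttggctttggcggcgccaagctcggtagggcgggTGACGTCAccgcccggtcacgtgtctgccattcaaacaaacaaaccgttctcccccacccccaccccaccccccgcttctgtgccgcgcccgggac
In Fos the half-sites lay at positions -129 to -125 and -66 to -62 before the start site and the TATA box at -33 to -28. The CRE of Dusp1 lay at -143 to -136. Nr4a1 had half-sites at -69 to -65 and -40 to -36 in the stretch shown.

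The libraries held 11326372 to 14601457 counts. Levels are given as CPM, counts relative to the library total after TMM adjustment. All were liver by their hepatocyte markers, with 7 listed genes that include Alb and Ttr summing to 68660 to 96450 CPM. Markers of Kupffer cells or macrophages summed to 106 to 255 CPM in HFD and 300.3 to 339 CPM in HFD+Allantoin-H livers. Those of stellate cells summed to 139 to 200 and 298 to 360 CPM. Both sums differed between the groups without overlap, as did 44.3% of single tested genes. Of the genes in these lists, Cd68, Clec4f, Marco, Des and Col3a1 overlapped between the groups and the others did not. The part of these lists in the group comparisons below was not tested. HFD 2 also carried transcripts of adipocytes, with Adipoq at 520 counts and Lep at 115 counts, whereas the other 5 libraries had 0 or 1 count of Adipoq and none of Lep. Mitochondrial transcripts took 17.9% to 36.5% of counts in HFD and 6.92% to 11.4% in HFD+Allantoin-H livers. HFD 3 and HFD+Allantoin-H 6 stood apart in the immediate early genes themselves, as described next, and results that rest on them are also given without them.

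Fos (ENSMUSG00000021250, chr12:85473890-85477273), the AP-1 subunit that depends on a Jun partner, was measured at 3.06, 1.19 and 27.2 CPM in HFD 1 to 3 and at 1.03, 2.07 and 187 CPM in HFD+Allantoin-H 4 to 6. Only HFD 3 and HFD+Allantoin-H 6 exceeded 10 CPM, the other 4 libraries lay between 1.03 and 3.06 CPM, and the groups overlapped. In bulk liver, a larger number of expressing cells and more RNA per cell cannot be told apart. Fosb (ENSMUSG00000003545, chr7:19302696-19310051), a second Fos-type subunit, had 4, 4 and 16 counts in the HFD libraries and 5, 8 and 37 counts in the HFD+Allantoin-H libraries, or 0.395 to 2.5 CPM. The same pair of libraries was highest, at a level where counting error is large.

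Jun (ENSMUSG00000052684, chr4:95049034-95052222), an AP-1 subunit that can pair with itself or with Fos, was at 17.5, 13.3 and 102 CPM in the HFD livers and at 8.58, 38.5 and 164 CPM in the HFD+Allantoin-H livers. HFD+Allantoin-H 5 lay between the lowest and the highest library of its group, 4.48-fold above HFD+Allantoin-H 4 and 4.26-fold below HFD+Allantoin-H 6. Junb (ENSMUSG00000052837, chr8:84974484-84978718), which forms AP-1 dimers with weaker activity than Jun, was at 43.0, 31.8 and 190 CPM in HFD 1 to 3 and at 26.2, 28.3 and 220 CPM in HFD+Allantoin-H 4 to 6. Its 4 lower libraries were within a range of 26.2 to 43.0 CPM, and the upper pair differed by a factor of 1.16.

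Egr1 (ENSMUSG00000038418, chr18:34859823-34864984), a factor induced by growth and stress signals, was at 11.8, 15.8 and 486 CPM in the HFD livers and at 7.62, 15.0 and 325 CPM in the HFD+Allantoin-H livers. HFD 3 was 30.7-fold above HFD 2 and HFD+Allantoin-H 6 was 21.7-fold above HFD+Allantoin-H 5, with the other 4 libraries at 15.8 CPM or less in both groups. Nr4a1 (ENSMUSG00000023034, chr15:101254269-101274795), which in liver is also induced by glucagon and cAMP, was at 1.2, 7.60 and 21.3 CPM in HFD 1 to 3 and at 1.91, 4.55 and 8.23 CPM in HFD+Allantoin-H 4 to 6. Its values were graded in both groups, and HFD 2 was 6.33-fold above HFD 1.

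Myc (ENSMUSG00000022346, chr15:61985391-61990374), a driver of ribosome production and cell growth, had another pattern. It was at 3.60, 4.15 and 133 CPM in the HFD livers and at 13.4, 28.7 and 28.2 CPM in the HFD+Allantoin-H livers. HFD 3 was the highest library by 32.1-fold over HFD 2, whereas HFD+Allantoin-H 6 did not exceed HFD+Allantoin-H 5, and all 3 HFD+Allantoin-H libraries lay above HFD 1 and HFD 2.

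Ier2 (ENSMUSG00000053560, chr8:84661331-84662852), a nuclear early response protein, was at 29.4, 25.2 and 142 CPM in HFD 1 to 3 and at 16.5, 16.3 and 150 CPM in HFD+Allantoin-H 4 to 6. Its profile was close to that of Junb in all 6 libraries. Ier3 (ENSMUSG00000003541, chr17:35821684-35822923), linked to survival and ERK signalling, had 4, 6 and 38 counts in the HFD libraries and 13, 8 and 54 counts in the HFD+Allantoin-H libraries, or 0.437 to 3.64 CPM. Dusp1 (ENSMUSG00000024190, chr17:26505590-26562128), the feedback phosphatase, was at 34.5, 19.5 and 58.9 CPM in HFD 1 to 3 and at 15.5, 23.2 and 90.5 CPM in HFD+Allantoin-H 4 to 6. The lead of HFD 3 was smaller for Dusp1 than for the other members, at 1.71-fold over HFD 1.

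**Figure D1:**
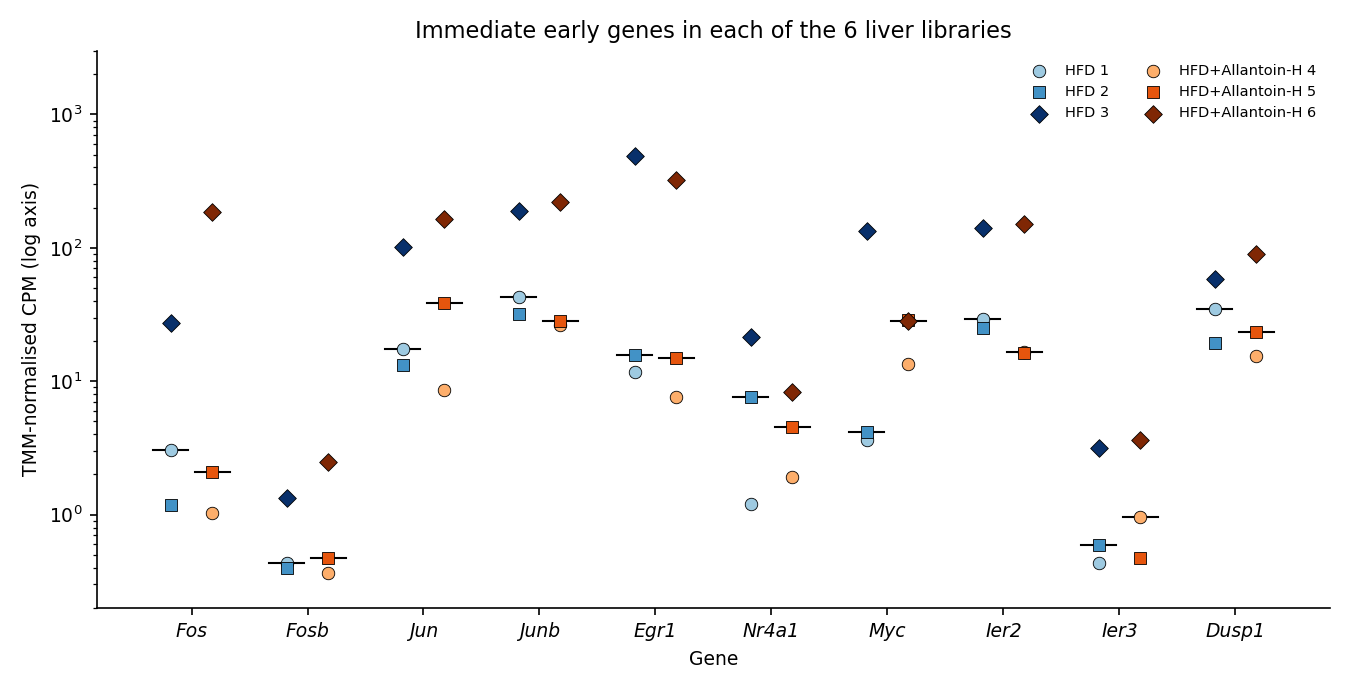
TMM-normalised CPM (log axis) of the 10 immediate early genes in each of the 6 liver libraries, with HFD libraries in blue and HFD+Allantoin-H libraries in orange and the short bar at the median of the 3 libraries of a group. HFD 3 (dark blue diamonds) is the highest HFD library in 10 of 10 genes and HFD+Allantoin-H 6 (dark red diamonds) is the highest of its group in 9 of 10, the exception being Myc.

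The sum over the 10 genes was 145, 120 and 1163 CPM in HFD 1 to 3 and 92.2, 158 and 1178 CPM in HFD+Allantoin-H 4 to 6. Thus 1 mouse of each group held a summed level several times that of the other mice of its group, and the sums of these 2 mice were close to each other. As a share of all counts, the 10 genes took 0.110% in HFD 3 and 0.131% in HFD+Allantoin-H 6, against 0.0107% to 0.0183% in the other 4 libraries. Junb shares 173 exon bases with Prdx2, Jun 232 with Junos and Dusp1 11 with Ergic1, all on the opposite strand, and whether the counting used strand is not given in the sources used here. Prdx2 ran from 1216 to 1550 counts and Junos from 2 to 9 counts over the 6 libraries, without the lead of HFD 3 and HFD+Allantoin-H 6 that Junb and Jun showed.

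The spread between mice of a group was far larger for these genes than for liver genes at large. It was measured as the SD of log2 CPM over the 3 libraries of a group, with a prior count of 2. Because the set was chosen with earlier results of these data known, the comparison with all tested genes is a description. In the HFD group the median SD of the 9 tested members was 1.58 against 0.35 for the 12795 tested genes, and in the HFD+Allantoin-H group it was 1.74 against 0.20. An SD above 1 was found for 8 of 9 members in the HFD group, where 7.45% of tested genes passed it, and for 8 of 9 in the HFD+Allantoin-H group, where 1.59% did. In both groups at once it was found for 7 of 9 members and for 0.758% of tested genes. The exceptions were Dusp1 in the HFD group, with an SD of 0.79, and Myc in the HFD+Allantoin-H group, with an SD of 0.62.

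The order of the spread differed between the groups. In the HFD group Egr1 had the largest SD (2.97, a value reached by 13 of the 12795 genes), followed by Myc (2.92), Fos (2.24) and Nr4a1 (2.01). In the HFD+Allantoin-H group Fos had the largest SD (3.98, a value reached by 3 of the 12795 genes), followed by Egr1 (2.87), Jun (2.11), Ier2 (1.83) and Junb (1.74). Egr1 was therefore widely spread in both groups, Myc mainly among HFD mice and Fos most among HFD+Allantoin-H mice. No test of the difference in spread between the groups was made with 3 libraries each.

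As a ratio of CPM, the highest HFD library exceeded the lowest by over 4-fold for 8 of 10 members (8.6% of tested genes) and the highest HFD+Allantoin-H library by over 4-fold for 9 of 10 (2.36%). The ratios ran from 3.03 for Dusp1 to 41.2 for Egr1 in the HFD group and from 2.14 for Myc to 182 for Fos in the HFD+Allantoin-H group. Counting error from the mean count of a group was smaller than the SD for 10 of 10 members in both groups. It was 0.05 for Fos in the HFD+Allantoin-H group on the log2 scale, and largest for Fosb in the HFD group, at 0.51 against an SD of 0.80. The highest library raises the mean count, so the error of the lower libraries is larger than these values. For Fos, HFD+Allantoin-H 4 and 5 had 14 and 35 counts against 2769 in HFD+Allantoin-H 6.

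**Figure D2:**
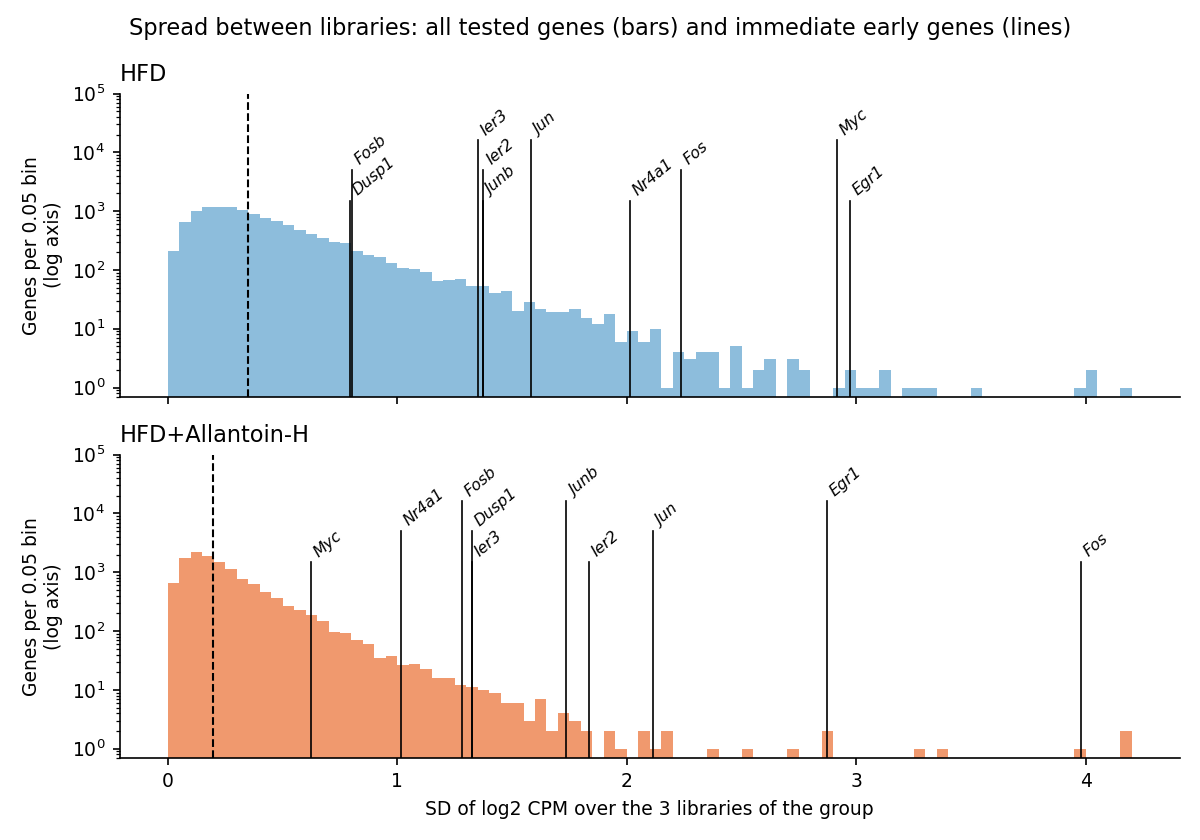
Histograms of the SD of log2 CPM over the 3 libraries of each group for 12795 tested genes (log axis of gene numbers, bins of 0.05), with black lines at the immediate early genes and a dashed line at the median of all tested genes. The members lie to the right of the median, 0.35 in HFD and 0.20 in HFD+Allantoin-H, with Egr1 and Myc farthest out in HFD and Fos and Egr1 in HFD+Allantoin-H.

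The spread came largely from 1 library in each group. HFD 3 was the highest HFD library for 10 of 10 members, which held for 33.5% of tested genes, and led the next library by over 2-fold in log2 CPM for 9 of 10 (2.8% of tested genes), with Dusp1 as the exception. HFD+Allantoin-H 6 was the highest of its group for 9 of 10 members (34.7% of tested genes) and led by over 2-fold for 8 of 10 (1.2%), with Myc and Nr4a1 as the exceptions. Both libraries led for 9 of 10 members and 14.2% of tested genes. Both led by over 2-fold for 7 of 10, namely Fos, Fosb, Jun, Junb, Egr1, Ier2 and Ier3, and for 0.234% of tested genes. Leaving out HFD 3 lowered the members' median SD in the HFD group from 1.58 to 0.29, and leaving out HFD+Allantoin-H 6 lowered that of the other group from 1.74 to 0.64. The corresponding medians of all tested genes went from 0.35 to 0.29 and from 0.20 to 0.15.

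The lowest libraries were shared less clearly. HFD 2 was lowest for 6 of 10 members (29.7% of tested genes), HFD 1 for 4 of 10 (36.2%) and HFD+Allantoin-H 4 for 8 of 10 (32.0%). HFD+Allantoin-H 4 was below the next library by over 2-fold for Jun, Nr4a1 and Myc (0.594% of tested genes), HFD 1 for Nr4a1 alone (3.8%) and HFD 2 for Fos alone (1.87%).

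The pair of high libraries did not hold the members in the same proportion. Fos was 6.88-fold higher in HFD+Allantoin-H 6 than in HFD 3, Fosb 1.87-fold, Jun 1.61-fold and Dusp1 1.54-fold. Junb, Ier3 and Ier2 differed by 1.16-, 1.15- and 1.06-fold, also in favour of HFD+Allantoin-H 6. Egr1, Nr4a1 and Myc were lower in HFD+Allantoin-H 6, at 0.668, 0.386 and 0.212 of the level in HFD 3. These are ratios between 2 single mice and carry no test.

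**Figure D3:**
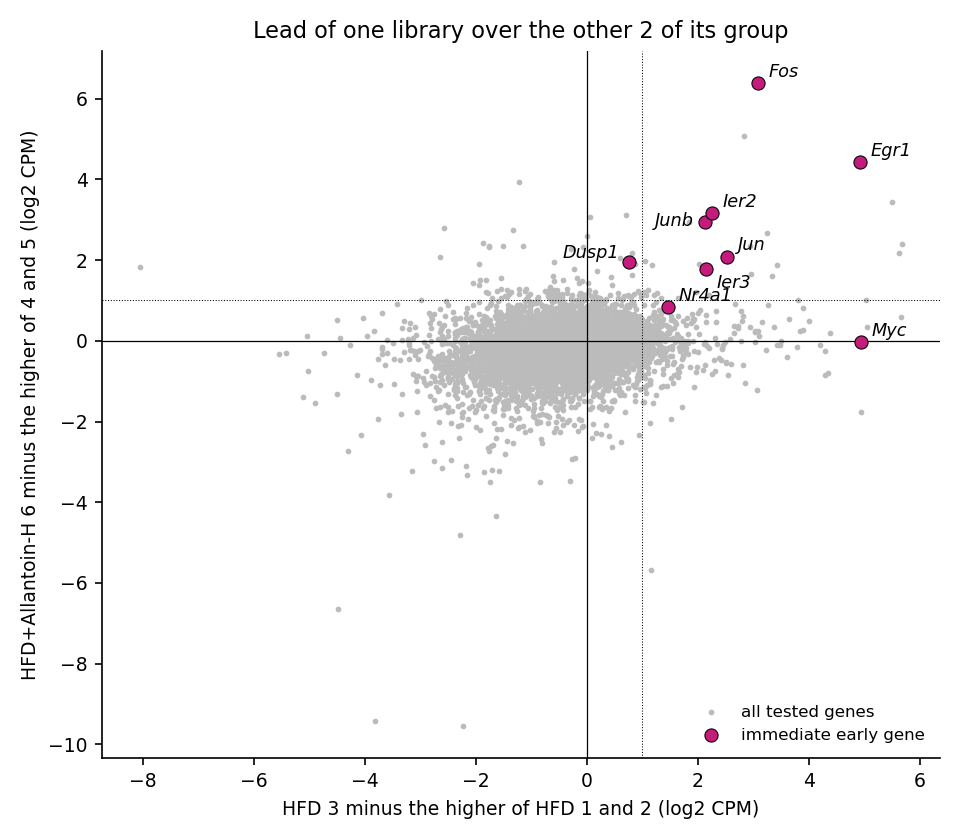
Lead of HFD 3 over the higher of HFD 1 and 2 (horizontal) and of HFD+Allantoin-H 6 over the higher of HFD+Allantoin-H 4 and 5 (vertical), in log2 CPM, for tested genes (grey) and the 9 tested members (magenta), with dotted lines at a 2-fold lead. Fos, Jun, Junb, Egr1, Ier2 and Ier3 lie in the upper right corner beyond both lines, Nr4a1 and Dusp1 beyond 1 of them, and Myc far to the right with no lead on the vertical axis.

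Other values moved with these 2 libraries. The summed cholangiocyte markers were 158 CPM in HFD 3 and 76.7 CPM in HFD+Allantoin-H 6 against 21.7 to 43.1 CPM in the other 4, mostly through Spp1 (110 and 73.0 CPM), a secreted phosphoprotein that several cell types make. Sox9 was high in HFD 3 alone (43.6 CPM), and Krt7, Krt19 and Epcam were at 2.84 CPM or less in all libraries. Sinusoidal endothelial markers were lowest of their group in both, at 95.1 CPM against 150 and 156 CPM in the other HFD libraries and at 122 CPM against 146 and 180 CPM in the other HFD+Allantoin-H libraries. Markers of neutrophils (11.6 and 6.75 CPM) and of T, B or NK cells (19.4 and 17.7 CPM) were highest of their group in both, against 8.0 to 9.72 and 14.7 to 16.4 CPM in the other HFD and 2.07 to 3.52 and 14.3 to 14.6 CPM in the other HFD+Allantoin-H libraries. HFD 3 had the lowest summed erythroid markers, 332 CPM against 876 to 1333 CPM in the other 5. The total counts of the pair were 12643458 and 13320211, and the mitochondrial share of 17.9% and 11.4% was the lowest of the HFD and the highest of the HFD+Allantoin-H libraries. The part of these values in the members' levels was not tested.

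Compared between the groups, none of the 9 tested members differed by edgeR's quasi-likelihood test at an adjusted p under 0.05. The count was 0 of 9 higher in HFD+Allantoin-H, where 11.3% of all tested genes were called, and 0 of 9 lower, where 13.0% were called. At an unadjusted p under 0.05 it was also 0 of 9, against 39.1% of tested genes, and limma-voom called 0 as well. DESeq2 gave no adjusted p for Fos, Junb, Egr1, Myc and Ier2 and so could not call them. It called 0 of the other tested members. All 10 members had overlapping groups, while 44.3% of tested genes did not overlap. Of the variance of log2 CPM, a median of 1.66% lay between the groups for the members and 45.8% for all tested genes. With 3 against 3 libraries the smallest p that exact permutation can give is 0.1.

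Among the AP-1 subunits, Fos had a mean of 10.5 ± 14.5 CPM in HFD and 63.3 ± 107 CPM in HFD+Allantoin-H livers (SD, n = 3), a log2 fold change of 2.57 with an SE of 1.68 and an edgeR adjusted p of 0.289. Its 95% interval ran from -1.23 to 6.37. Jun had 44.2 ± 49.8 and 70.2 ± 82.3 CPM, a log2 fold change of 0.66 with an SE of 0.99 and an edgeR adjusted p of 0.661. Junb had 88.1 ± 88.0 and 91.6 ± 111 CPM, a log2 fold change of 0.05 with an SE of 0.89 and an edgeR adjusted p of 0.974. In each case the SD of the group with the higher mean exceeded that mean, and Fosb was not tested.

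Among the other transcription factors, Egr1 had 171 ± 273 and 116 ± 181 CPM (log2 fold change -0.57, SE 1.54, edgeR adjusted p 0.820). Nr4a1 had 10.04 ± 10.3 and 4.90 ± 3.18 CPM (log2 fold change -1.05, SE 0.81, edgeR adjusted p 0.369). Myc had 46.9 ± 74.6 and 23.5 ± 8.70 CPM (log2 fold change -1.01, SE 1.11, edgeR adjusted p 0.540). Ier2, Ier3 and Dusp1, the remaining members, had log2 fold changes of -0.11, 0.22 and 0.19 with SEs of 0.92, 0.89 and 0.62 and edgeR adjusted p from 0.849 to 0.947. The intervals were wide throughout. The narrowest, that of Dusp1, ran from -1.21 to 1.60 and still included a change of over 2-fold in either direction. The median SE of the members was 0.92 against 0.26 over all tested genes, so a missing call does not show equal levels.

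The direction of the members changed with the library left out. The log2 fold changes of all 9 tested members were above 0 without HFD 3 and below 0 without HFD+Allantoin-H 6. Without HFD 3, Fos had a log2 fold change of 4.92 and Egr1 of 3.08, and without HFD+Allantoin-H 6 they had -2.75 and -3.92, none of them called (edgeR adjusted p 0.102 for Fos and 0.124 for Egr1 without HFD 3, and 0.170 for Fos and 0.146 for Egr1 without HFD+Allantoin-H 6). Myc was the one member whose call depended on a library. Without HFD 3 its log2 fold change was 2.60 with an edgeR adjusted p of 0.00226, which is a call of higher expression in HFD+Allantoin-H. Without HFD 3 and HFD+Allantoin-H 6 together, a setting chosen after seeing the data, it was 2.46 with an edgeR adjusted p of 0.0105, and it was the only member called of the 8 then tested. In the remaining 4 mice Fos, Junb, Egr1, Nr4a1, Ier2 and Dusp1 had log2 fold changes from -0.72 (Ier2, edgeR adjusted p 0.0508) to -0.27 (Egr1) and Jun had 0.63, none of them called. The levels behind the Myc value were a mean of 3.88 CPM in HFD 1 and 2 and 21.1 CPM in HFD+Allantoin-H 4 and 5. Removing a mouse for its level of these genes selects on the outcome, so these values describe the dependence on the library and do not replace the comparison of 6 mice.

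Without the filter on low counts, edgeR called Fos and Jun higher and Nr4a1 and Myc lower (adjusted p 2.65e-27, 0.0103, 0.00848 and 1.08e-04), although the libraries of both groups overlapped. In that fit the prior degrees of freedom, which set how far each gene's own spread is drawn towards the common value, went from 5.03 to infinite, so that a gene's own spread no longer counted.

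**Figure D4:**
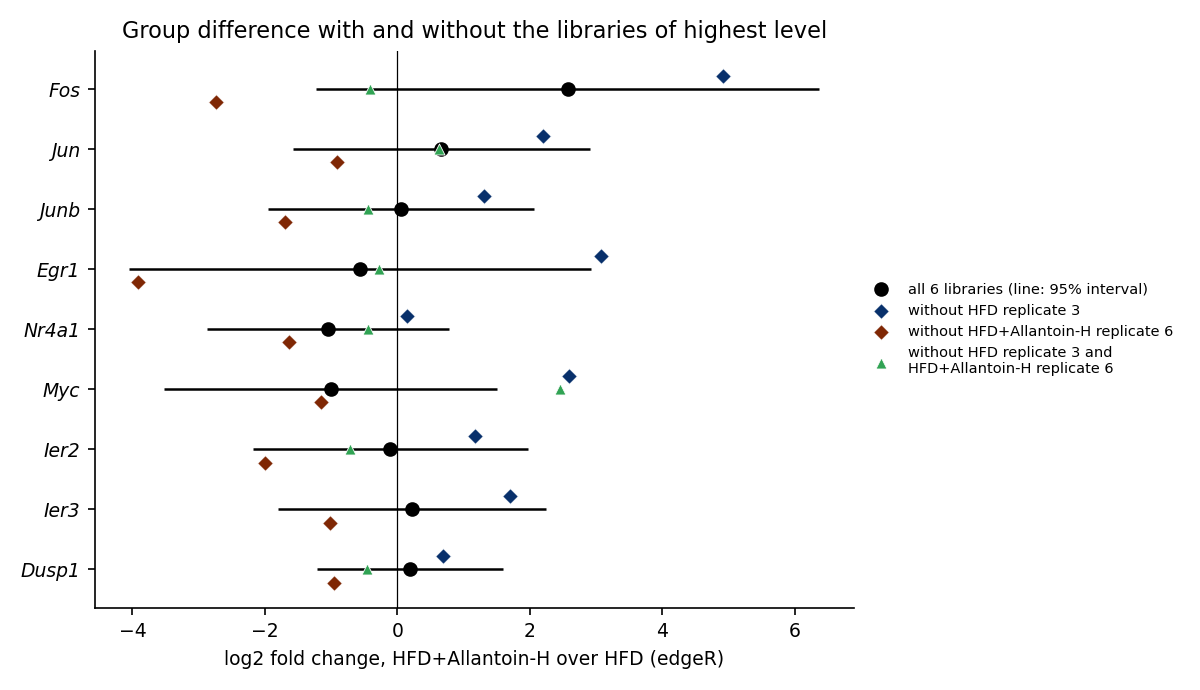
Log2 fold change (HFD+Allantoin-H over HFD, edgeR) of the 9 tested members with its 95% interval over all 6 libraries (black), without HFD replicate 3 (blue), without HFD+Allantoin-H replicate 6 (dark red) and without both (green, chosen after seeing the data; Ier3 was then not tested). All black intervals include 0, and the blue and dark red points lie on opposite sides of 0 for all 9 members.

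Per kilobase of exon, which allows levels of different genes to be compared, Ier2 and Junb led the HFD group with medians of 19.3 and 18.7 CPM per kb, followed by Dusp1 (10.4), Jun (5.48), Egr1 (3.52), Nr4a1 (2.17), Myc (1.53), Fos (1.30), Ier3 (0.524) and Fosb (0.0700). In the HFD+Allantoin-H group the order was Junb (12.3), Jun (12.1), Ier2 (10.8), Myc (10.4), Dusp1 (7.0), Egr1 (3.34), Nr4a1 (1.30), Fos (0.880), Ier3 (0.843) and Fosb (0.0758). Within the HFD group each gene's range over the 3 libraries overlapped that of its neighbour except for Ier3 and Fosb. In the HFD+Allantoin-H group the exceptions were Ier2 against Myc and Ier3 against Fosb. Most neighbours in either order thus did not differ beyond their spread, and Fosb was the least abundant member in both groups.

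Among the members the profiles over the 6 libraries were most alike for Junb and Ier2, with a root mean square difference of 0.15 in centred log2 CPM. Fosb and Dusp1 followed at 0.30, but Fosb had only 4 to 37 counts per library, where the prior count of 2 narrows a profile. Over the 12315 tested genes that averaged 1 CPM or more, the gene nearest to Fos was Egr1 (1.09), followed by Gsta1 (1.30) and Jun (1.36). Jun was nearest to Junb (0.68), Btbd19 (0.75) and Ier2 (0.77). Egr1 was nearest to Btg2 (0.77), an antiproliferative factor, and then to Egr2 (1.04) and Atf3 (1.06). Myc was nearest to Nipal1 (0.49), Rcan1 (0.55), an inhibitor of calcineurin, and Phlda1 (0.67), and to no other member.

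Other genes of the rapid response were read from 7 lists with 105 genes, of which 95 were tested, 10 were higher and 11 were lower in HFD+Allantoin-H. These shares lie near the 11.3% higher and 13.0% lower over all tested genes, so the calls below are described gene by gene and set no list apart. These counts moved with single libraries. They were 2 and 3 without HFD+Allantoin-H 5, 2 and 5 without HFD+Allantoin-H 4, and 5 and 5 without HFD+Allantoin-H 6. Without HFD 3, 20 were higher, and without HFD 2, 17 were lower. With scaling by library size only they were 18 and 4, a setting that also moved the median log2 fold change of all tested genes from -0.03 to 0.38.

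Of 9 tested members of the remaining AP-1 family, 0 were higher and 2 were lower, and the list's median log2 fold change was -0.93 (-0.38 without HFD 3) against -0.03 for all tested genes. The 2 were Batf3, a partner of Jun in immune cells, and Atf4, the factor of the integrated stress response. Their log2 fold changes were -2.37 and -1.10, with edgeR adjusted p of 0.0225 and 0.0382. Batf3 was low throughout, at 0.988 to 2.51 CPM in HFD and 0.203 to 0.592 CPM in HFD+Allantoin-H livers. Fosl2, a further Fos-type subunit, was at 10.2, 12.3 and 117 CPM in HFD 1 to 3 and at 5.79, 9.46 and 8.10 CPM in HFD+Allantoin-H 4 to 6, with an edgeR adjusted p of 0.0539. It shared the high level of HFD 3 but not that of HFD+Allantoin-H 6. Atf3, a stress-induced AP-1 partner, was at 126 CPM in HFD 3 and 10.3 CPM in HFD+Allantoin-H 6 and at 1.28 to 2.40 CPM in the other libraries (edgeR adjusted p 0.138). Jund, the subunit known for steady expression, ran from 16.2 to 68.0 CPM (edgeR adjusted p 0.110).

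Of 10 tested EGR, NR4A and KLF factors, 1 was higher and 0 were lower. The former was Klf9, a glucocorticoid-responsive factor, at 17.0 to 47.2 CPM in HFD and 65.5 to 93.0 CPM in HFD+Allantoin-H livers (log2 fold change 1.59, edgeR adjusted p 0.0192). Egr2, a relative of Egr1, was at 33.8 CPM in HFD 3 and 9.58 CPM in HFD+Allantoin-H 6 and under 1 CPM in the other 4 libraries, the same pair of high libraries as for Egr1. The list's median log2 fold change was -1.10, and -0.05 without HFD 3. Of 24 tested rapid-response effectors, 2 were higher and 4 were lower, against 11.3% and 13.0% of all tested genes, and the list's median log2 fold change was -0.46, or 0.24 without HFD 3. The lower ones were Cebpb, a liver acute-phase factor (log2 fold change -1.30, edgeR adjusted p 0.00340), Gadd45b (-1.87, 0.00972), Per1 of the circadian clock (-1.23, 0.0126) and the growth inhibitor Btg1 (-0.95, 0.0225). The higher ones were Bhlhe40, a clock repressor (1.26, 0.00449), and Zfp36l2, a factor of mRNA decay (1.15, 0.0444).

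Of 10 tested dual-specificity phosphatases and Sprouty inhibitors, Dusp16 was higher (log2 fold change 0.78, edgeR adjusted p 0.0174) and 0 were lower, and the median log2 fold change of -0.0045 became 0.65 without HFD 3. Dusp6, a phosphatase of ERK, was at 29.9, 22.2 and 422 CPM in HFD 1 to 3 and 26.3, 29.9 and 60.5 CPM in HFD+Allantoin-H 4 to 6 (edgeR adjusted p 0.161). HFD 3 and HFD+Allantoin-H 6 led their groups in Dusp6, as in Dusp1.

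The upstream factors and kinases had a median SD of 0.24 in HFD and 0.14 in HFD+Allantoin-H. The other 6 lists ran from 0.41 to 1.58 in HFD and from 0.18 to 0.49 in HFD+Allantoin-H, so in the latter group all 7 lists lay below the members' median of 1.74. Of 23 tested, 4 were higher and 3 were lower, against 11.3% and 13.0% of all tested genes. The higher ones included Mapk14, the stress kinase p38 alpha (log2 fold change 0.81, edgeR adjusted p 0.0140), and Map2k1, a kinase of the ERK route (0.54, 0.0484), while Mapk3, which encodes ERK1, had 0.49 with an adjusted p of 0.0830. Egfr, the receptor for EGF, was lower (-1.20, 0.0101), as were Elk4, a ternary complex factor (-0.65, 0.0165), and the SRF coactivator Mrtfa (-0.94, 0.0341). Srf itself was at 24.8 CPM in HFD 3 and 7.80 to 10.8 CPM in the other 5 libraries (edgeR adjusted p 0.360).

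Of 12 tested Myc partners and antagonists, Mxd4, a Myc antagonist (log2 fold change 0.74, edgeR adjusted p 0.0199), and Mycl, a relative of Myc (1.18, 0.0486), were higher. Mlxipl, the carbohydrate response factor ChREBP (-1.95, 0.00513), and Zbtb17, the Myc partner Miz-1 (-0.99, 0.0146), were lower. Of 7 heat shock genes, listed because they respond to stress and handling, 0 were called in either direction, and their median log2 fold change of -1.31 became 1.06 without HFD 3. Hspa1b, an inducible HSP70, was at 5.90, 9.48 and 297 CPM in HFD 1 to 3 and at 12.2, 53.0 and 15.4 CPM in HFD+Allantoin-H 4 to 6. Dnajb1, an HSP40, was at 22.05, 28.8 and 955 CPM and at 19.8, 35.7 and 72.2 CPM. Heat shock transcripts were thus high in HFD 3 together with the immediate early genes, whereas in HFD+Allantoin-H 6 Hspa1b was below HFD+Allantoin-H 5. The part of heat shock or handling in the members' levels was not tested.

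**Figure D5:**
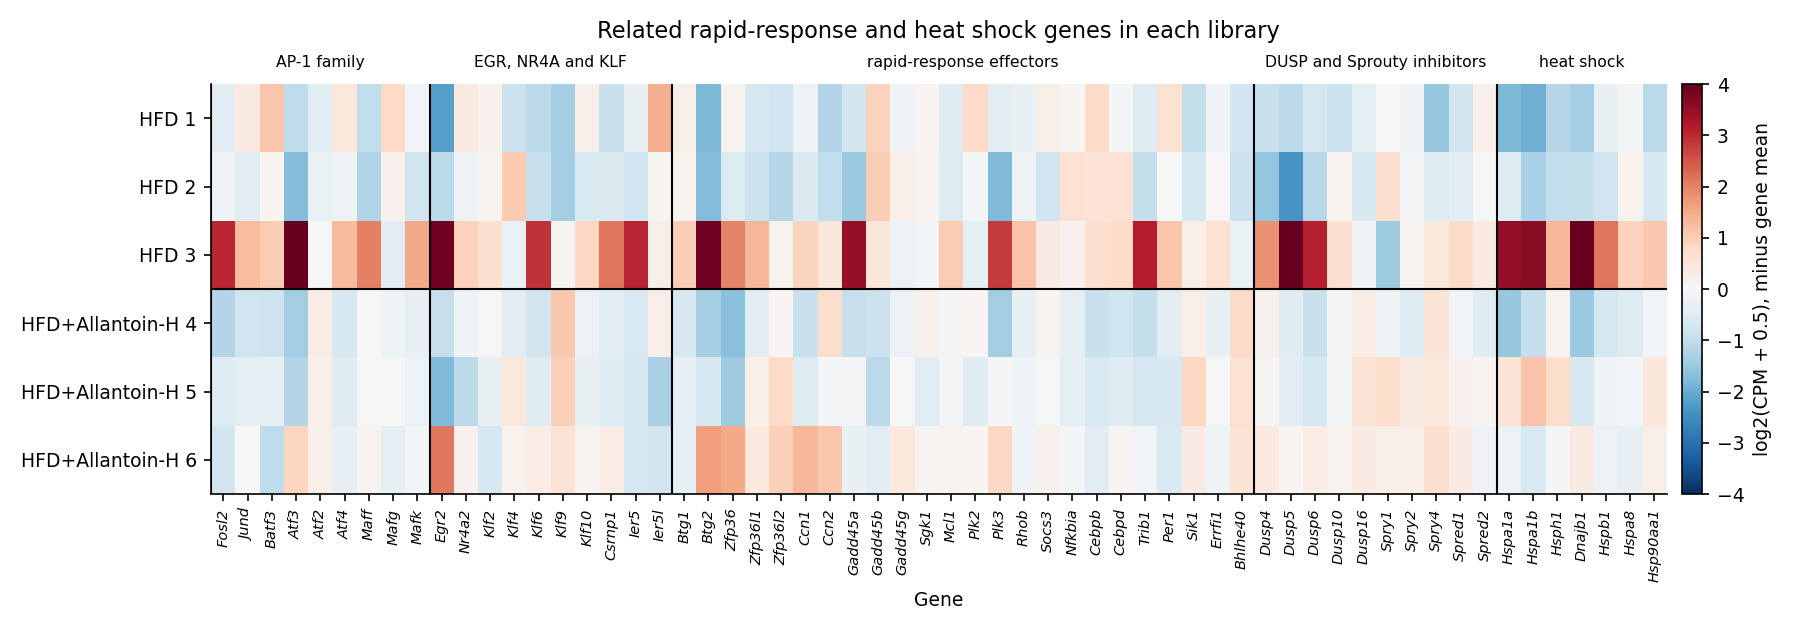
Log2(CPM + 0.5) minus each gene's mean over the 6 libraries, from blue (lower) to red (higher) and limited to 4 on either side, for tested genes of 5 related lists in the 3 HFD (top) and 3 HFD+Allantoin-H (bottom) libraries. Red cells gather in HFD 3, for instance Atf3 (126 CPM) and Dnajb1 (955 CPM), and fewer genes, among them Egr2, Btg2 and Zfp36, are also red in HFD+Allantoin-H 6.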

How the data were processed

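RNA-seq libraries of liver, 3 from HFD and 3 from HFD+Allantoin-H mice, were taken as 1 per mouse. They were made from 1.5 µg of total RNA with a SMARTer mRNA-seq kit and sequenced on an Illumina HiSeq. The authors filtered the reads and deposited whole-number read counts per gene, not normalized. The submitters' processing notes name the genome build GRCm38 (mm10), and the aligner, the counting tool and the use of strand are not given in the sources used here. Of 54961 features in the table, 54532 carry an Ensembl identifier, and 429 without one were omitted, which removed 0.197% to 0.306% of the counts. No sample column was left unused. Symbols, positions and exon lengths came from GENCODE M21.

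The members, the related lists and the tests were chosen with earlier results of these data known. Counts were tested in edgeR 4.0.16 (R 4.3.3) with TMM scaling, filterByExpr (minimum count 10), a quasi-likelihood F test and p-values adjusted by Benjamini-Hochberg over 12795 genes with a threshold of 0.05, with the group as the only term. The SE of a log2 fold change was taken from the F statistic. Log2 CPM used a prior count of 2, and a lead is the log2 CPM distance to the next library of the group. Spread and leads were described, with no test. The procedure was tested on simulated data. BLAST found no other transcript with at least 90% identity over at least 100 bases for any member.

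All 10 members were named, and of the related lists the called genes with the 4 smallest p-values, Fosl2, Jund, Atf3, Dusp6, Srf, Egfr and Mapk3 whatever their values, and the 3 nearest profiles of Fos, Jun, Egr1 and Myc. Zfp36, Ccn1, Hspa1b, Dnajb1 and the genes of the closing section were named after their values were seen. Some genes that these rules select are not reported here. Library totals of 11326372 to 14601457 counts limit genes with few counts such as Fosb and Ier3. Alternatives were DESeq2 size factors, library size and upper quartile scaling, DESeq2 1.42.0, limma-voom (limma 3.58.1), other filters and thresholds, removal of length and GC trends, no mitochondrial genes, all features, other prior counts, the CV as measure of spread, and leaving out libraries. The labels give no animal number and no pairing, so p-values set the group difference against the spread between these libraries.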

Additional observations from a re-analysis of the deposited data

How the results depend on the processing

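No paired analysis was possible because the groups share no replicate number. Over up to 20 alternatives per member, members were called in 2 kinds of setting, without the low-count filter (2 higher and 2 lower) and without HFD 3 (Myc), alone or together with HFD+Allantoin-H 6 (1 higher in both). Leaving out 1 library gave 0 to 1 members higher and 0 to 0 lower, a median SD of the members of 0.29 to 1.79 in HFD and 0.64 to 1.98 in HFD+Allantoin-H, 460 to 1773 genes higher and 564 to 2008 lower, and 2 to 20 related genes higher and 3 to 17 lower. The log2 fold changes then ran from -2.75 to 4.92 for Fos, -0.91 to 2.20 for Jun, -1.69 to 1.30 for Junb, -3.92 to 3.08 for Egr1, -1.63 to 0.15 for Nr4a1, -1.55 to 2.60 for Myc, -1.995 to 1.17 for Ier2, -1.01 to 1.69 for Ier3 and -0.96 to 0.68 for Dusp1. Without HFD 3 and HFD+Allantoin-H 6 together, chosen after seeing the data, the median SDs were 0.30 and 0.66, 5 related genes were lower, and Fos had -0.41, Junb -0.44, Dusp1 -0.46 and Myc 2.46. Scaling by library size gave 3162 genes higher and 674 lower, 18 related genes higher and 4 lower, and 0.20 for Ier2, which removal of length and GC trends put at 0.27. With limma-voom Junb had -0.23, Myc 0.64 and Dusp1 -0.10. An adjusted p under 0.01 gave 443 genes higher and 573 lower, and an added absolute log2 fold change above 1 gave 722 and 974. As a CV in percent, the members' median spread was 109.8 in HFD and 117.2 in HFD+Allantoin-H, against 24.4 and 13.97 for all tested genes. The smaller number of libraries, or of genes, belongs to the construction of these alternatives, and the cause of the other differences was not tested. Depth limits Fosb and Ier3, and 3 mice per group limit the rest.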

Other observations

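Among the 30 tested genes in which both HFD 3 and HFD+Allantoin-H 6 led their groups by over 2-fold, 6 were members and 7 belonged to the related lists (Egr2, Btg2, Atf3, Zfp36, Ccn1, Dusp6 and Dnajb1). The other 17 were chosen here by their values and get no test. They included chemokine genes. Cxcl10, an interferon-induced chemokine, was at 48.7 CPM in HFD 3 and 12.7 CPM in HFD+Allantoin-H 6 and at 3.52 to 4.69 CPM in the other 4 libraries. Ccl2, a chemokine that attracts monocytes, was at 5.69 and 3.10 CPM in the pair and at 0.546 to 0.880 CPM in the other 4. The list also held genes with no known place among rapid-response genes. Cyp2b9, a cytochrome P450, was at 0.546, 0.395 and 4.85 CPM in HFD 1 to 3 and at 5.57, 2.66 and 194 CPM in HFD+Allantoin-H 4 to 6. For this gene HFD 3 thus led its own group but lay below HFD+Allantoin-H 4. Mup19, a major urinary protein that has close relatives whose reads may be shared, was at 770 and 228 CPM in the pair. It was at 100 and 91.7 CPM in HFD 1 and 2 and at 37.8 and 44.4 CPM in HFD+Allantoin-H 4 and 5.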
